A study of Mus musculus with 6 samples.

Results

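The genes described here are 29 genes of cholesterol synthesis and of its control by SREBP, taken from a list of gene symbols that was drawn up with earlier results of these data known. They comprise enzymes of the mevalonate and sterol pathways, regulators of SREBP, genes of sterol transport and efflux, and 3 fatty acid enzymes. Every probe set paired with exactly 1 of these symbols was taken, which gave 59 of the 45037 probe sets on the array and covered 27 of the 29 genes. No probe set was listed for Acat2 and Nr1h2 in the probe table used here, so the level of neither was read. Cells of GC1-Spg, an established mouse line derived from spermatogonia, were transfected with 100 nM siRNA against mrhl or, as the control, with 100 nM of a scrambled siRNA, and were harvested after 44 h. The gene of mrhl, a long noncoding RNA, lies inside Phkb. Each group held 3 biological replicates, numbered 1 to 3, and each replicate was hybridized to a 1-colour Affymetrix array. All cells came from the same line and all were transfected with siRNA, so neither group shows the line in its untreated state.

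Cholesterol is built from acetyl-CoA through mevalonate, isoprenoid diphosphates, squalene and lanosterol. The transcription factors SREBP-1 and SREBP-2, encoded by Srebf1 and Srebf2, are made as precursors in the membrane of the endoplasmic reticulum. When sterols are scarce, the escort protein Scap carries them to the Golgi, where proteases release the active factor, which turns on genes of sterol and fatty acid synthesis. When sterols are plentiful, Insig proteins hold Scap and the precursor back. Insig1 is itself a target of SREBP, which closes a feedback loop. In the testis, late intermediates known as meiosis-activating sterols accumulate, and lanosterol demethylase, the product of Cyp51, makes the first of them.

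Promoters of 6 genes are shown, because 5 of these genes were high together in replicate number 3 in the values below while Srebf2 was not. The sequences are from RefSeq on build GRCm38.p6, run from 250 bases before to 50 bases after the annotated start and are written 5′ to 3′ on the strand of the gene. Capitals mark CCAAT on either strand (CCAAT or ATTGG), the letters that the factor NF-Y binds, and in Hmgcs1 also the match to TCACNCCAC, a form of the sterol regulatory element.
Hmgcs1, chr13:119690101-119690400, plus strand: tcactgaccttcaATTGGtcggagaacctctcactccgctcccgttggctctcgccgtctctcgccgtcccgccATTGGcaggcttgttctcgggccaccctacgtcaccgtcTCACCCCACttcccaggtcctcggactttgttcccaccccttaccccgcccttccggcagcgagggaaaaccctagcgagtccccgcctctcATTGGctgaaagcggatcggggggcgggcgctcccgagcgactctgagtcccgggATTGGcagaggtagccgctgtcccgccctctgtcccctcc
Cyp51, chr5:4104648-4104947, minus strand: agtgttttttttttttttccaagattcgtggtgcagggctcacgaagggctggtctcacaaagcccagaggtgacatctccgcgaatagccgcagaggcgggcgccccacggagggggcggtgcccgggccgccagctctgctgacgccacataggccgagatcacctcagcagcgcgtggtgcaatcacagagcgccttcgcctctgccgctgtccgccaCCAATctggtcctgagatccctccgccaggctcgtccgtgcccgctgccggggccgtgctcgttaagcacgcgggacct
Msmo1, chr8:64733529-64733828, minus strand: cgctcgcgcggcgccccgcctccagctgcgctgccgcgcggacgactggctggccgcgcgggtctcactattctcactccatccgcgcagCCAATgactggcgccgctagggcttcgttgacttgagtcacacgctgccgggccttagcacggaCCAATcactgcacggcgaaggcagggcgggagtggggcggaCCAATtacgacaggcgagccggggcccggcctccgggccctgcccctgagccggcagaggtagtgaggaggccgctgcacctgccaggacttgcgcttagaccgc
Hsd17b7, chr1:169969156-169969455, minus strand: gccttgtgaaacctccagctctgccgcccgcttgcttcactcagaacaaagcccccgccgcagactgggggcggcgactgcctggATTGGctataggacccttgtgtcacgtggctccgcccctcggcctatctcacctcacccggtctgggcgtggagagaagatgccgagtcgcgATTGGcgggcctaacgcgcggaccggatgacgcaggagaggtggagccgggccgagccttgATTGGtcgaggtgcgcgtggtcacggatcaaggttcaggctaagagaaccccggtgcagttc
Insig1, chr5:28071162-28071461, plus strand: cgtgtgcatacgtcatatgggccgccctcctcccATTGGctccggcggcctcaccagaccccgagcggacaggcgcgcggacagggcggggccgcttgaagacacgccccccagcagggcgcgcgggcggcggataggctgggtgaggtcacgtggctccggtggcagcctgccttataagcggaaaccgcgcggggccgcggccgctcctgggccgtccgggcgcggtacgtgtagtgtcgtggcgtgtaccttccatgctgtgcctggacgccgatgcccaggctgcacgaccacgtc
Srebf2, chr15:82147019-82147318, plus strand: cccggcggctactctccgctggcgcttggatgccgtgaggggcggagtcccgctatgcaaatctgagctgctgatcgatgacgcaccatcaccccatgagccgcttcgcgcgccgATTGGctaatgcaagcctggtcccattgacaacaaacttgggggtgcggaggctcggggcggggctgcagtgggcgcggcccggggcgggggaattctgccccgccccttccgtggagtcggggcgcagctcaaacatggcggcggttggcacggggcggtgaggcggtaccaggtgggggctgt
RefSeq promoters were found for 23 of the 29 genes, Acat2 and Nr1h2 among them, but not for Fdps, Fdft1, Sqle, Stard4, Scd1 or Scd2. CCAAT was present on either strand in at least 1 promoter of 19 of the 23, against 41.1% of all 27025 genes in the table. By promoter, it was present in 20 of 31, against 37.4% of all 32851. CCAAT was also present in Srebf2 and in Mvk, Mvd, Ebp and Fasn, whose brightest probe sets were not high in number 3. GGGCGG, the core of sites for Sp1, was present in 20 of the 23 genes, against 38.2% of all genes. TCACNCCAC was present in 1 of the 23, Hmgcs1, against 1.44% of all genes. No other form of the sterol regulatory element was searched, so this count does not show which promoters lack one. The motifs were searched on both strands and counted separately, so matches could overlap. A match in these windows is a description of the letters and not of a bound factor.

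The values are deposited log2 levels, so a difference of 1 is a factor of 2. Array medians lay within 0.11 of each other. Of the 59 probe sets, 55 reached the level of 3.62 above which probe sets were tested, and each of the 27 genes kept at least 1. The 4 left out were dim second probe sets of Fdps, Fdft1 and Cyp51. Each gene was read through its brightest tested probe set. Of 12 markers of spermatogonia and the germ line, 7 had a tested probe set, from Kit at a mean of 3.62 to Uchl1 at 7.49. Ddx4, Dazl, Dppa3 and Mael lay below the tested level, so these defining markers of germ cells were not shown to be above background. Of 7 markers of fibroblasts and peritubular cells, 6 were tested, from Myh11 at 3.72 to Vim at 12.94, with Col1a1 at 12.35, and Thy1 lay below the tested level. All 7 markers of Sertoli cells were tested, from Fshr at 3.72 to Wt1 at 10.76. Of 7 markers of Leydig cells 3 were tested, from Hsd3b1 at 3.96 to Star at 5.93. No probe set was paired with mrhl, so its silencing, which the design text says was checked by quantitative PCR, could not be read here. The control rows for 18S RNA averaged 3.42, 3.37 and 5.72 in replicates 1, 2 and 3 after mrhl siRNA, against 3.76, 6.50 and 5.52 after scrambled siRNA. The 3′ minus 5′ difference of the beta-actin control rows ran from 0.38 to 0.45 after mrhl siRNA and from 0.42 to 0.63 after scrambled siRNA.

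The comparison of mrhl siRNA with scrambled siRNA asks which of these genes differ in level when mrhl is silenced. None passed the test (limma, adjusted p from 0.965 to 0.995 over the 27 genes), and none had an unadjusted p under 0.05, where 2.84% of all 14885 genes read the same way did (3.44% of the 33778 tested probe sets). The median log2 difference was -0.05 over the 27 genes and -0.04 over all genes. Negative values were found for 18 of the 27, against 57.9% of all genes. By pair, the median was -0.24 in number 1, with 22 of 27 negative against 54.8% of all genes. It was -0.02 in number 2, with 15 negative against 58.1%, and -0.03 in number 3, with 15 negative against 55.7%. The groups did not overlap in 1 of the 27, Mvd, against 8.44% of all genes. With the replicate number as a block, which compares the arrays of equal number, 0 genes passed again (limma, smallest adjusted p = 0.487 over the 27), while 10.1% of all tested probe sets had an unadjusted p under 0.05. In that fit 3 had an unadjusted p under 0.05 with lower values after mrhl siRNA, Hsd17b7, Fdft1 and Insig2, against 5.89% of all genes, and 1 with higher values, Mvd, against 3.14%. All 3 pairs were lower after mrhl siRNA in 10 of the 27, against 26.1% of all genes, and higher in 4, against 14.5%. In bulk RNA, fewer cells with a transcript and less of it per cell cannot be told apart.

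Many of the 27 genes, though not all, were high in replicate number 3. Relative to each gene's own mean, the 17 measured enzymes of the mevalonate and sterol pathways averaged -0.32, -0.20 and 0.37 in replicates 1, 2 and 3 after mrhl siRNA. After scrambled siRNA they averaged -0.09, -0.18 and 0.43. Number 3 was thus the highest in both groups, while numbers 1 and 2 stood in opposite order. The heat map of levels by array shows the values of single genes.

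**Figure D1:**
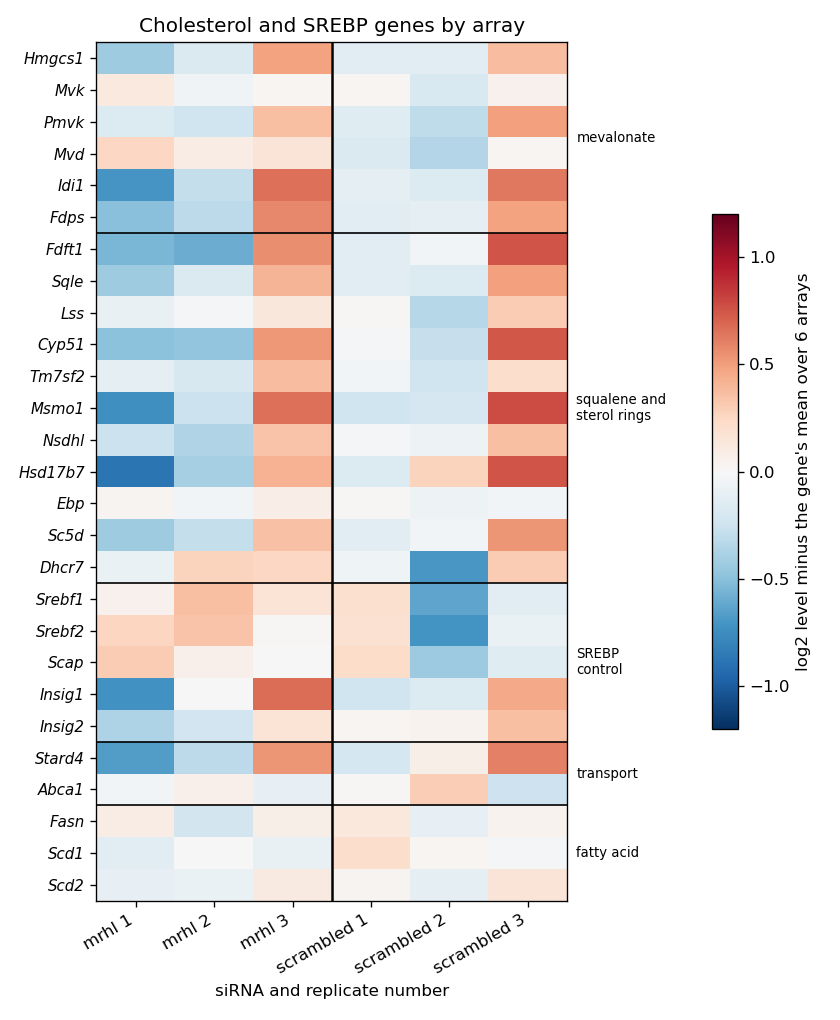
Log2 level of 27 genes (rows, by role) in each of 6 arrays (columns, siRNA and replicate number), minus the gene's own mean over the arrays. Red columns at number 3 stand out in both groups for most mevalonate and sterol enzymes, where the 17 enzymes averaged 0.37 after mrhl siRNA and 0.43 after scrambled siRNA.

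Among the enzymes that lead to farnesyl diphosphate, 4 of 6 had negative and 2 positive differences after mrhl siRNA, with a median of -0.05, and 0 passed. Mvd, the decarboxylase that yields isopentenyl diphosphate, had log2 levels of 6.47, 6.32 and 6.38 in replicates 1, 2 and 3 after mrhl siRNA, against 6.06, 5.88 and 6.25 after scrambled siRNA. Every mrhl siRNA array lay above every scrambled siRNA array. Mvd thus differed by 0.33 on the log2 scale (SE 0.153, 95% interval -0.03 to 0.69), short of the threshold (limma, adjusted p = 0.965). A dimmer probe set of Mvd had 0.08.

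Idi1, the isomerase that turns isopentenyl into dimethylallyl diphosphate, had 7.33, 7.75 and 8.69 after mrhl siRNA, against 7.92, 7.87 and 8.67 after scrambled siRNA. The groups overlapped, and in both the array of number 3 was the highest. Between the groups Idi1 differed by -0.23 (SE 0.375, 95% interval -1.11 to 0.65). Within the pairs of numbers 1, 2 and 3 it was -0.59, -0.12 and 0.02. The cytosolic HMG-CoA synthase gene Hmgcs1, whose product makes the substrate of HMG-CoA reductase, differed by -0.08 between the groups (95% interval -0.70 to 0.55). Its 4 other probe sets lay between -0.11 and -0.09. Farnesyl diphosphate synthase, encoded by Fdps, had -0.16 (95% interval -0.89 to 0.58). The kinase genes Mvk and Pmvk, which phosphorylate mevalonate and phosphomevalonate, had 0.07 and -0.02.

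Among the 11 enzymes from squalene to cholesterol, 7 had negative and 4 positive differences, with a median of -0.19, and 0 passed. The same 7 were lower after mrhl siRNA in 3 of 3 pairs, against 26.1% of all genes. They were Fdft1, Sqle, Cyp51, Msmo1, Nsdhl, Hsd17b7 and Sc5d. Some pair differences were near 0, such as -0.02 for Sqle in number 2 and for Nsdhl in number 3. The dimmer tested probe sets of Fdft1 and Msmo1 were not lower in every pair, but that of Cyp51 was. Those of Hsd17b7 and Sc5d were split. The widest difference was that of Hsd17b7, the 3-keto reductase of the sterol ring, which had 6.25, 6.73 and 7.54 after mrhl siRNA, against 6.96, 7.40 and 7.88 after scrambled siRNA. Each mrhl siRNA array was below the scrambled siRNA array of its own number, but the groups overlapped because number 3 was high in both. Hsd17b7 differed by -0.57 (SE 0.362, 95% interval -1.42 to 0.28), short of the threshold (limma, adjusted p = 0.965). Without mrhl siRNA replicate 3 it was -0.92, and without mrhl siRNA replicate 1 it was -0.28. With the replicate block the interval was -0.90 to -0.25 (limma, unadjusted p = 0.00618, adjusted p = 0.487). The probe sets of Hsd17b7 disagreed, with -0.57 and -0.39 for the next brightest and 0.48 for the dimmest, in which every mrhl siRNA array lay above every scrambled siRNA array.

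Fdft1, squalene synthase, had 8.55, 8.51 and 9.66 after mrhl siRNA, against 8.96, 9.07 and 9.85 after scrambled siRNA. Fdft1 differed by -0.39 (95% interval -1.25 to 0.47, and -0.71 to -0.07 with the replicate block), while its other tested probe set had -0.10. Without mrhl siRNA replicate 3 Fdft1 had -0.77, and without scrambled siRNA replicate 3 it had -0.11. Cyp51, the lanosterol demethylase, had 7.43, 7.45 and 8.44 after mrhl siRNA, against 7.89, 7.65 and 8.67 after scrambled siRNA. Its log2 difference was -0.30 (95% interval -1.14 to 0.54), and its dimmer probe set had -0.39. Msmo1, the sterol C4-methyl oxidase, had 8.64, 9.12 and 10.04 after mrhl siRNA, against 9.14, 9.18 and 10.16 after scrambled siRNA. In Fdft1, Cyp51 and Msmo1 alike, the arrays of number 3 were the highest of each group and the spread over replicate numbers was wider than the difference between siRNAs.

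Dhcr7, which reduces 7-dehydrocholesterol to cholesterol in the last step of its branch, had 8.10, 8.45 and 8.43 after mrhl siRNA, against 8.13, 7.48 and 8.48 after scrambled siRNA. Only scrambled siRNA replicate 2 was low. Dhcr7 differed by 0.30 (95% interval -0.32 to 0.91), and without scrambled siRNA replicate 2 it was 0.02. Sqle, squalene epoxidase and a known control point of the pathway, had -0.13 (95% interval -0.76 to 0.51). The C5-desaturase gene Sc5d had -0.24 and the C4-decarboxylating dehydrogenase gene Nsdhl -0.19. The sterol isomerase gene Ebp had 0.05 and the C14-reductase gene Tm7sf2 0.04. The brightest probe set of Lss, lanosterol synthase, had 0.02, but its other tested probe sets had -0.44 and -0.22, so the direction for Lss depended on the probe set.

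**Figure D2:**
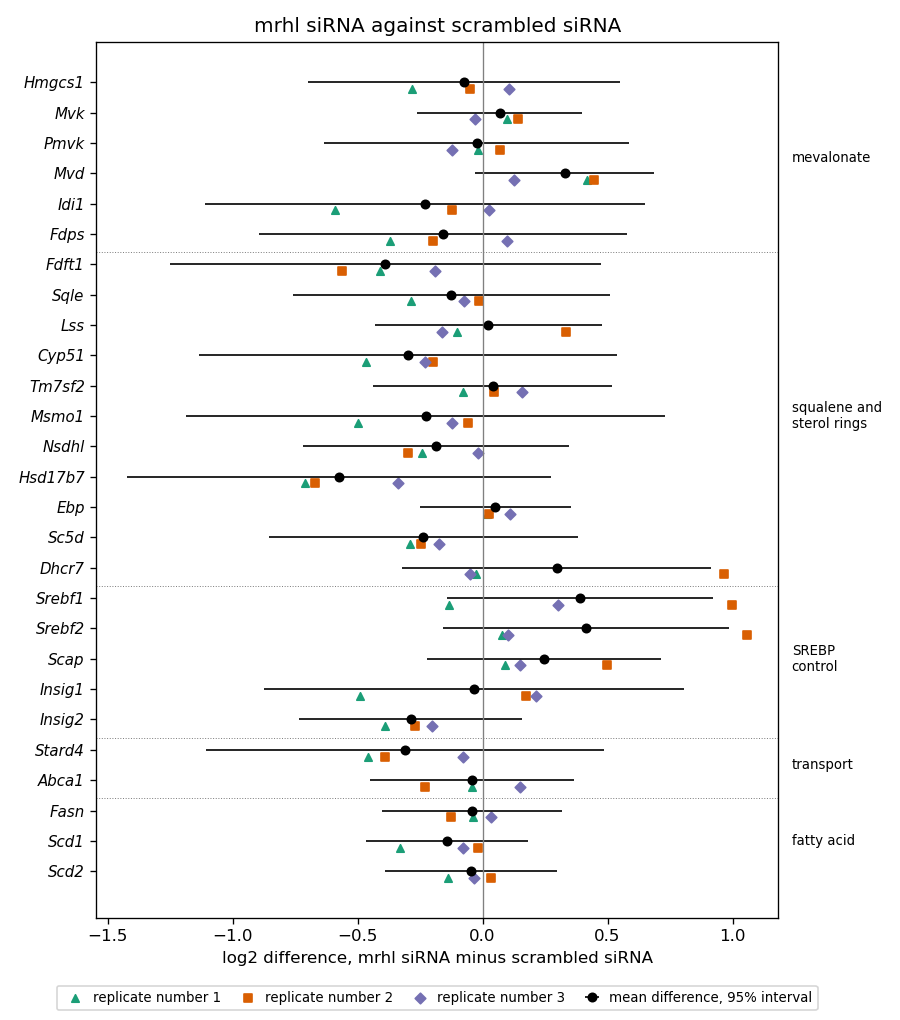
Log2 difference, mrhl siRNA minus scrambled siRNA, of each gene (black, with the 95% interval of the limma fit without a block) and within each pair of equal replicate number (coloured). Every interval spans 0, and the differences of Hsd17b7 lie below 0 in 3 of 3 pairs while those of Srebf1, Srebf2 and Dhcr7 are near 1 in number 2 alone.

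Of the 5 regulators of SREBP, 3 had positive and 2 negative differences after mrhl siRNA, with a median of 0.24, and 0 passed. Srebf1, the gene of SREBP-1, had 9.59, 9.90 and 9.70 after mrhl siRNA, against 9.73, 8.90 and 9.40 after scrambled siRNA, a log2 difference of 0.39 (SE 0.227, 95% interval -0.14 to 0.92). Srebf2, the gene of SREBP-2, had 9.12, 9.20 and 8.88 after mrhl siRNA, against 9.04, 8.14 and 8.78 after scrambled siRNA, a log2 difference of 0.41 (SE 0.244, 95% interval -0.16 to 0.98). Scap had 8.94, 8.69 and 8.63 after mrhl siRNA, against 8.85, 8.19 and 8.48 after scrambled siRNA, a log2 difference of 0.24 (95% interval -0.22 to 0.71). In all 3 genes the groups overlapped, and scrambled siRNA replicate 2 was the lowest of the 6 arrays.

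Without scrambled siRNA replicate 2 the log2 differences became 0.17 for Srebf1, 0.16 for Srebf2 and 0.09 for Scap. None passed with or without that array (limma, adjusted p = 0.965 for each with it and 0.999 for each without it). The other probe set of Srebf2 had 0.44, close to the brightest, and a dim probe set of Scap had -0.10. The 6 tested markers of fibroblasts and peritubular cells averaged 10.78, 10.76 and 10.71 after mrhl siRNA, against 10.81, 10.28 and 10.37 after scrambled siRNA, and all 6 had positive differences. Scrambled siRNA replicate 2 was thus lowest in the mean of these markers, and it had the highest mean of the 18S rows, 6.50. Myh11 was an exception, with 4.08 in that array and its lowest value, 2.41, in scrambled siRNA replicate 3. The part of either in these differences was not tested.

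Insig1, which holds back Scap and is a SREBP target, had 8.76, 9.49 and 10.15 after mrhl siRNA, against 9.25, 9.32 and 9.93 after scrambled siRNA. Its log2 difference was -0.03 (SE 0.359, 95% interval -0.88 to 0.81), with -0.49, 0.17 and 0.21 in the pairs of numbers 1, 2 and 3. Both groups were ordered by replicate number, and the pair of number 1 alone was lower after mrhl siRNA.

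Insig2, the paralog that is not itself a strong SREBP target, had 10.81, 10.95 and 11.34 after mrhl siRNA, against 11.20, 11.22 and 11.54 after scrambled siRNA. Insig2 differed by -0.29 (SE 0.191, 95% interval -0.73 to 0.16), and its 2 other probe sets had -0.27 and -0.23. All 3 probe sets were lower after mrhl siRNA in each pair. With the replicate block the interval of the brightest was -0.57 to -0.01 (limma, unadjusted p = 0.0466, adjusted p = 0.492).

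**Figure D3:**
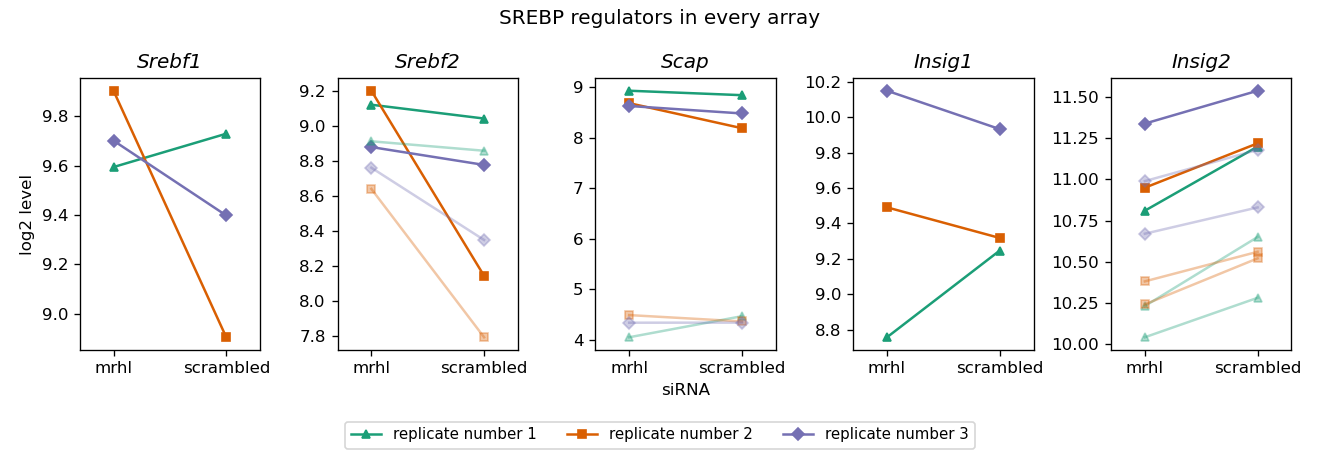
Log2 level of Srebf1, Srebf2, Scap, Insig1 and Insig2 after mrhl siRNA (left of each panel) and scrambled siRNA (right), with arrays of equal replicate number joined and dimmer probe sets drawn faint. In Srebf1 and Srebf2 the line of number 2 ends at 8.90 and 8.14 in scrambled siRNA replicate 2, and all lines of Insig2 are lower after mrhl siRNA.

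Of the transport genes, Stard4, whose product carries cholesterol between membranes, had 8.28, 8.63 and 9.47 after mrhl siRNA, against 8.73, 9.02 and 9.55 after scrambled siRNA. Each array was below its partner of equal number. Stard4 differed by -0.31 (SE 0.340, 95% interval -1.10 to 0.49), and its other probe sets had -0.40 and -0.34. Leaving out 1 array gave Stard4 values from -0.65 without mrhl siRNA replicate 3 to -0.05 without mrhl siRNA replicate 1. Abca1, the efflux pump that is induced through LXR when sterols are abundant, had 9.57, 9.66 and 9.50 after mrhl siRNA, against 9.61, 9.89 and 9.35 after scrambled siRNA. The log2 difference of Abca1 was -0.04 (95% interval -0.45 to 0.37), and here number 3 held the lowest array of each group.

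Read through their brightest probe sets, the fatty acid enzymes varied little. Scd1, a stearoyl-CoA desaturase, had 10.50, 10.64 and 10.54 after mrhl siRNA, against 10.84, 10.66 and 10.62 after scrambled siRNA, a log2 difference of -0.14 (95% interval -0.47 to 0.18). Its paralog Scd2 had 12.63, 12.65 and 12.84 after mrhl siRNA, against 12.76, 12.62 and 12.88 after scrambled siRNA, a log2 difference of -0.05 (95% interval -0.39 to 0.30). The probe sets of Scd2 disagreed, with 0.10 and 0.62 for the dimmer ones. The latter was higher after mrhl siRNA in each pair, by 0.10, 0.69 and 1.07. With the replicate block it had an interval of 0.10 to 1.14 (limma, unadjusted p = 0.0286, adjusted p = 0.487). Such close paralogs can share probe signal, which was not tested. Fasn, fatty acid synthase, had -0.04 (95% interval -0.40 to 0.32).

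The replicate numbers were then compared directly. The design text speaks of 3 independent experiments, and arrays of equal number deviated together from their group means, so the number was tested as a factor beside the siRNA. None of the 27 genes passed (limma F-test, smallest adjusted p = 0.124), nor did any of the 33778 probe sets, although 23.1% of these had an unadjusted p under 0.05. Of the 27 genes 15 did, against 21% of all genes read through their brightest probe set. With a trended and robust variance model 14 of the 27 passed (limma F-test), against 8.36% of all genes. Of these 14, 4 were mevalonate enzymes, 7 sterol enzymes, 2 the Insig genes and 1 Stard4. With dim probe sets up to the median left out 10 passed, against 4.89%.

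Both arrays of number 3 lay above the other 4 in 17 of the 27 genes, against 16.7% of all genes, a count that was added after the values were seen. They comprised 4 of 6 mevalonate enzymes, 9 of 11 sterol enzymes, both Insig genes, Stard4 and Scd2. The median difference between number 3 and number 1 was 0.65 for the mevalonate enzymes and 0.72 for the sterol enzymes, against 0.0022 over all genes. In the medians of these enzymes number 2 was close to number 1, at -0.0088 and -0.07. Some single genes differed more between number 2 and number 1. Hsd17b7 had 0.46 (SE 0.157), Insig1 0.40 (SE 0.217), Stard4 0.32 (SE 0.156) and Scap -0.45 (SE 0.161). Abca1 was the 1 gene of the 27 for which both arrays of number 3 lay below the other 4, against 10.1% of all genes.

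The largest difference was that of Msmo1, 1.21 between number 3 and number 1 (SE 0.166), a factor of 2.31. Hsd17b7 had 1.11 (SE 0.157), Idi1 1.06 (SE 0.192) and Insig1 1.04 (SE 0.217). Stard4 had 1.01 (SE 0.156), Fdft1 1.00 (SE 0.153) and Cyp51 0.89 (SE 0.143). For Fdps, Sqle, Sc5d, Hmgcs1, Pmvk and Nsdhl the values ran from 0.85 down to 0.49. Smaller values were found for Insig2 (0.44), Tm7sf2 (0.36), Dhcr7 (0.34), Lss (0.26), Scd2 (0.16) and Abca1 (-0.17). By probe set, the other 4 of Hmgcs1 were between 0.67 and 1.16, and the others of Stard4 had 1.03 and 0.49. The readings of Lss disagreed by number, with 0.78 and -0.66 for its other probe sets, and a dimmer probe set of Scd2 had 0.95. Those of Hsd17b7 and Sc5d differed in size. The others of Hsd17b7 had 1.19, 1.66 and, for the dimmest, 0.26, and the others of Sc5d had 0.57 and 0.16.

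Other enzymes varied little by number. Between number 3 and number 1, Mvk had -0.03 (SE 0.134), Mvd 0.05 (SE 0.150) and Ebp -0.0036 (SE 0.130). The fatty acid enzymes Fasn and Scd1 had -0.05 (SE 0.133) and -0.09 (SE 0.148). The regulators Srebf1, Srebf2 and Scap had -0.11, -0.25 and -0.33. Dimmer probe sets of Mvd and Scd1 had 0.37 and 0.52, so the 2 readings of each gene disagreed. The dimmer probe set of Mvk had 0.14 (SE 0.137). Against number 2, number 3 of Srebf1, Srebf2 and Scap read 0.15, 0.16 and 0.12. Without scrambled siRNA replicate 1 the value of Srebf1 against number 1 was 0.28, so its order by number was not settled. Over the fits without 1 array, that of Srebf2 ran from -0.50 to -0.0029 and that of Scap from -0.45 to -0.21. In Scap both arrays of number 1 lay above the other 4. Between number 3 and number 1 the dim probe set of Scap had 0.08, and the other probe set of Srebf2 -0.33. Other values moved with the number too. The 18S rows were higher in number 3 than in number 1 in both groups. The 6 tested markers of fibroblasts and peritubular cells had a median of -0.32 between number 3 and number 1, but they did not move together. Both arrays of number 3 lay above the other 4 in Vim (0.07) and Fn1 (0.17). Col1a1, Col1a2, Acta2 and Myh11 had -0.25, -0.46, -0.40 and -0.66. With the trended and robust variance model 3 of the 6 passed (limma F-test), against 8.36% of all genes. Of the germ line and Sertoli cell lists, the widest values were those of Uchl1 (-0.85) and Sox9 (0.96). The germ line median was -0.14, with 1 of 7 tested markers positive, Id4 (0.46), where 7479 of all 14885 genes were positive. Of these 7, 2 had an unadjusted p under 0.05 by number (limma F-test), against 21% of all genes. The Sertoli cell median was -0.02, with 3 of 7 positive and Cldn11 lowest at -0.76. The part of any of these in the values of the sterol genes was not tested, and the labels do not say how the 3 experiments differed.

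**Figure D4:**
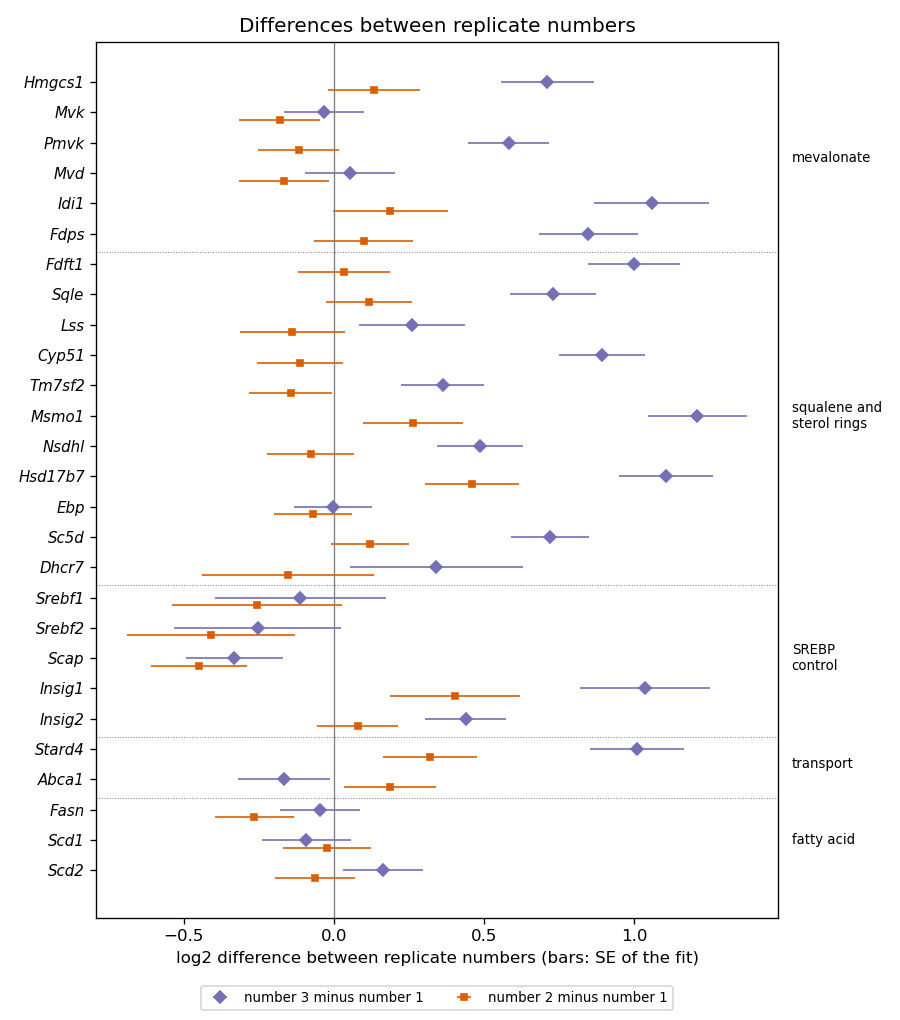
Log2 difference of number 3 and of number 2 from number 1 for each gene, from the limma fit with siRNA and replicate number, with bars for the SE of the fit. Most mevalonate and sterol enzymes, Insig1 and Stard4 lie between 0.49 and 1.21 for number 3, while Mvk, Mvd, Ebp, Fasn and Scd1 lie near 0.

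Other genes of lipid metabolism were read from a list of 38, of which 35 had a tested probe set. After mrhl siRNA 0 passed, 19 had negative and 16 positive differences, and the median was -0.02. Acsl3, an acyl-CoA synthetase, had 8.20, 8.16 and 8.36 after mrhl siRNA, against 8.44, 8.53 and 8.71 after scrambled siRNA. The groups of Acsl3 did not overlap, and its log2 difference was -0.32 (SE 0.146; limma, adjusted p = 0.965). The elongase gene Elovl1 had -0.22 (SE 0.169). Among genes of SREBP processing and turnover, the protease gene Mbtps2, whose product makes the last cut that frees SREBP, had -0.20 (SE 0.188). Fbxw7, whose product marks nuclear SREBP for degradation, had -0.11 (SE 0.182).

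Among genes of sterol uptake and transport, Lrp1, a lipoprotein receptor, had 0.31 (SE 0.217). Mylip, a ubiquitin ligase of lipoprotein receptors, had -0.23 (SE 0.142). Of the isoprenoid branches, Ggps1, which makes geranylgeranyl diphosphate, had -0.21 (SE 0.147), and Pdss2, of the side chain of ubiquinone, -0.22 (SE 0.155). The groups also did not overlap in Acaca (0.14) and Fnta (-0.10), named after their values were seen, which with Acsl3 made 3 of 35, close to the 8.44% of all genes. By replicate number the median of the 35 genes between number 3 and number 1 was 0.04, and both arrays of number 3 were above the other 4 in 6 of 35, against 16.7% of all genes. Both were below the other 4 in 2 of 35, Nr1h3 and Abcg1, named after their values were seen, against 10.1% of all genes. Neither count stood apart from the share over all genes.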

How the data were processed

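Log2 expression values per probe set and array were deposited by the authors for 6 arrays, 1 for each biological replicate. The tools GCOS and PLIER are credited to the submitters' processing notes. Settings, versions and any scaling across arrays were not given in the sources used here. That the unit is log2 was inferred from the spread of the values, some of them negative. Groups and replicate numbers came from the sample titles. Control rows (64 of 45101) and probe sets with a mean under the 25th percentile, 3.62, were left out, and 33778 were tested.

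The groups were compared with limma 3.58.1 in R 4.3.3 (lmFit and eBayes, mrhl siRNA over scrambled siRNA). P-values were adjusted after Benjamini and Hochberg over all tested probe sets, with a threshold of 0.05. Intervals are 95% intervals of that fit. Replicate numbers were tested with limma's F-test in a fit with siRNA and number. The same fits were also run on simulated arrays with changes placed in them. Their noise was independent between arrays, unlike here, where arrays of equal number deviated together. With 3 arrays a group precision is limited, and the median SE was 0.192, and 0.132 with the replicate block.

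Deviations from the group means correlated at 0.534, 0.201 and 0.567 for equal numbers, all above 0.1, so the numbers were read as pairs, as the 3 independent experiments of the design text allow. For unequal numbers they ran from -0.518 to 0.0684.

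Probe sets were named from the platform's probe table, in which 34945 had 1 symbol, 932 several and 9160 none. All 27 member gene IDs were found in the RefSeq gene table of GRCm38.p6. The members, lists and tests were chosen with earlier results of these data known. The rule for genes with values in every array was the 2 of smallest p in each role group, the 5 SREBP regulators and the 4 of smallest p by replicate number, and of the other pathway lists the 2 of smallest p were named. Alternatives were other normalizations, filters, variance models, array weights, the replicate block, each array left out and averages over a gene's probe sets. Figures were drawn with matplotlib 3.10.9.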

Additional observations from a re-analysis of the deposited data

How the results depend on the processing

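In the comparison of the siRNAs, 0 of the 27 genes passed under any of the 16 alternatives run (limma). Over all probe sets the count stayed at 0 except for 2 with the replicate block and a trended, robust variance model together, chosen after seeing the data, which were not among these genes. The replicate block alone left the count at 0 and changed no call, and gave 3411 probe sets with an unadjusted p under 0.05, against 1163 without it. The median of the 27 differences was -0.05, became -0.19 with array weights, and ran from -0.21 to 0.052 over the fits without 1 array (lowest without mrhl siRNA replicate 3, highest without mrhl siRNA replicate 1). Without both arrays of number 1, also chosen after seeing the data, it was -0.04.

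In the comparison of replicate numbers, 0 genes and 0 probe sets passed. Leaving out dim probe sets up to the median gave 10 of the 27 genes and 1339 probe sets, and the trended, robust model gave 14 and 2885. Leaving out 1 array gave 0 of the 27 genes and from 0 to 429 probe sets, with 429 without mrhl siRNA replicate 1, 85 without scrambled siRNA replicate 1 and 1 without scrambled siRNA replicate 3. The cause of these shifts was not tested.

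Differences between the siRNAs that changed sign without 1 array ran from -0.34 to 0.12 for Hmgcs1, -0.0048 to 0.11 for Mvk, -0.21 to 0.22 for Pmvk, -0.62 to 0.068 for Idi1 and -0.49 to 0.054 for Fdps. They ran from -0.36 to 0.085 for Sqle, -0.14 to 0.18 for Lss, -0.63 to 0.00022 for Cyp51, -0.13 to 0.16 for Tm7sf2 and -0.61 to 0.11 for Msmo1. They ran from -0.38 to 0.32 for Insig1, -0.18 to 0.10 for Abca1, -0.10 to 0.057 for Fasn and -0.11 to 0.017 for Scd2. Other sign changes were 0.00022 for Pmvk with quantile normalization, and -0.056 for Lss, -0.062 for Tm7sf2 and 0.023 for Abca1 with array weights. With probe sets averaged per gene Lss had -0.21 and Scd2 0.23, and without both arrays of number 1 Hmgcs1 had 0.028, Insig1 0.19 and Scd2 0.00091. Between number 3 and number 1, sign changes without 1 array ran from -0.11 to 0.042 for Mvk, -0.10 to 0.20 for Mvd, -0.048 to 0.041 for Ebp, -0.50 to 0.28 for Srebf1, -0.10 to 0.010 for Fasn and -0.23 to 0.050 for Scd1. Mvd had -0.067 with quantile normalization and -0.045 with array medians set to a common value, and averaging probe sets gave 0.056 for Mvk and 0.21 for Scd1.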
